A study of Mus musculus with 6 samples.

Results

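The matrix metalloproteases (Mmp), the ADAMTS proteases (Adamts) and their tissue inhibitors (Timp), which together set how fast the extracellular matrix is cut, were followed through the beige differentiation of mouse fat precursors. Members were chosen by gene symbol alone, as Mmp, Adamts or Timp followed by a number and, for Mmp, an optional letter. The rule found 46 of the 45808 genes of the count table, 23 Mmp genes, 19 Adamts genes and 4 Timp genes. RNA came from cultured stromal-vascular cells, the non-fat cell fraction of inguinal white fat, of wild-type (WT) male mice 8 weeks old. Cells at confluence were day 0, cells after 2 days of induction medium were day 2, and cells taken on to day 6 in maintenance medium were day 6, with 2 libraries per day that carry the numbers 76 and 77. The induction medium held IBMX (a phosphodiesterase inhibitor, 0.5 mM), dexamethasone (a glucocorticoid, 5 µM), indomethacin (a cyclooxygenase inhibitor, 125 µM), insulin (850 nM), T3 (thyroid hormone, 1 nM) and rosiglitazone (a PPAR gamma agonist, 1 µM). Insulin, T3 and rosiglitazone stayed in the maintenance medium. The study as titled concerns Naa10, an amino-terminal acetyltransferase, but all 6 libraries are wild-type, so comparisons are between days.

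Matrix metalloproteases and ADAMTS proteases are zinc enzymes that are made as inactive precursors and cut matrix proteins outside the cell or at its surface. Some Mmp proteins are secreted and others, the membrane-type enzymes, sit in the plasma membrane. Mmp14, a membrane-type enzyme, cuts fibrillar collagen and, in a complex with Timp2, activates Mmp2. In mice Mmp14 is needed for white fat to form normally within its collagen network. ADAMTS proteases cut proteoglycans such as versican, trim the amino-terminal propeptides of fibrillar procollagens, or bind fibrillin microfibrils. The Timp proteins block the active sites of Mmp proteins, and Timp3 also blocks ADAMTS proteases and Adam17.

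Counts in genes ranged from 22522221 to 29458374 per library, and the members took 0.196% to 0.916% of them. CPM below are read counts divided by the TMM-adjusted library total, and where libraries of a day are listed, 76 comes first and 77 second. Markers were set against the labels: the summed level of 8 adipocyte markers was 317 and 389 CPM at day 0, 5398 and 4824 CPM at day 2, and 33585 and 27911 CPM at day 6, and that of 8 stromal progenitor markers was 2010.1 and 2064 CPM at day 0, 1235 and 1429 CPM at day 2, and 760.3 and 1135 CPM at day 6. The low-count filter kept 32 of the 46 members, 13 Mmp genes, 15 Adamts genes and all 4 Timp genes. Of these, 26 reached the filter's minimum in all 6 libraries, while Adamts16, Adamts17, Adamts19, Mmp9, Mmp12 and Mmp16 passed on some libraries only. Members that passed through their highest day alone had to differ between days. Adamts16 and Mmp16 passed on the 2 libraries of day 0 alone, so a fall after day 0 was built into their admission. Adamts17 passed on days 0 and 2 only, and Adamts19 on days 2 and 6 only. Mmp12 passed on library 76 of day 0 and library 76 of day 6 only, so a low day 2 was built into its admission. Of the 14 members left untested, Adamts13, Adamts18, Mmp1a, Mmp7 and Mmp20 had 0 counts in every library, and Adamts8, Adamts20, Mmp1b, Mmp8, Mmp10, Mmp13, Mmp21, Mmp24 and Mmp25 had 1 to 21 counts over all 6.

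Sequence is shown first for the cluster of 10 Mmp genes on chromosome 9, since its members share promoter letters yet differ widely in counts. The cluster spans 7272514 to 7699585 in GRCm38 and holds, in order, Mmp13, Mmp12, Mmp1b, Mmp3, Mmp1a, Mmp10, Mmp8, Mmp27, Mmp20 and Mmp7. The 150 bases before the RefSeq start sites (build GRCm38.p6) of 4 of them are given 5′ to 3′, with capitals marking the AP-1 motif TGANTCA and the TATA motif TATAAA.
Mmp3, chr9:7445672-7445821, plus strand: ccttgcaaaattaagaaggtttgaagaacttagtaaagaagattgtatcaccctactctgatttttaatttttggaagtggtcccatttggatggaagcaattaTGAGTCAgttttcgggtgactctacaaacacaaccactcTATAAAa
Mmp10, chr9:7502192-7502341, plus strand: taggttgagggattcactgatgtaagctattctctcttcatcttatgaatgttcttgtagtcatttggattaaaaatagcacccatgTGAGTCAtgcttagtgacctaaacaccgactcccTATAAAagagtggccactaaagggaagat
Mmp13, chr9:7272364-7272513, plus strand: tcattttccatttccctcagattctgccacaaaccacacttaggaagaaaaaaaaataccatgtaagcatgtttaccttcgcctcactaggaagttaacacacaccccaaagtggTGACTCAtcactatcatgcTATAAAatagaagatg
Mmp27, chr9:7571246-7571395, plus strand: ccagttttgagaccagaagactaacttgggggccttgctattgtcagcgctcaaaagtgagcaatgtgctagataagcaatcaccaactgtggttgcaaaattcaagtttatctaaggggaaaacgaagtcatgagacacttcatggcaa
Mmp3, Mmp10 and Mmp13 each hold an AP-1 motif followed by TATAAA, and Mmp27 holds neither in this window. RefSeq promoters were found for 32 of the 46 members, 35 promoters in all. Members without a promoter were not searched. In the 250 bases before the start, on both strands, 8 of the 10 cluster genes held TGANTCA and 7 of 10 held both motifs, counted by gene over their 12 promoters. Counted by promoter, 0 of the 23 outside the cluster held TGANTCA. The share of all promoters, given next, would also put few or none among 23. Over all 32851 promoters of the table, 6.75% held TGANTCA and 12.4% held TATAAA. The cluster genes lie side by side and resemble each other in sequence, so they are not independent cases. A cyclic AMP response element (TGACGTCA, 1.55% of all promoters) and a glucocorticoid response element (0.387%) were in none of the 35 member promoters searched. At such shares few or none would be found in so few promoters. The TEAD motif GGAATG (12.6%) was in those of Adamts13 and Timp1. No motifs overlapped each other in the members. These are matches of letters and say nothing of which factors were bound.

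Despite the shared letters, 95.9% of the cluster's 7061 counts fell on Mmp3, a secreted protease of broad range, also called stromelysin. Mmp3 had 28.7 and 39.2 CPM at day 0, 65.2 and 100.3 CPM at day 2, and 3.88 and 7.83 CPM at day 6. Both day 2 libraries were highest and both day 6 libraries lowest, without overlap between days. Mmp3 rose 2.44-fold by day 2 (log2 change 1.29, SE 0.26, adjusted p = 0.00259 by edgeR's quasi-likelihood test) and at day 6 stood 5.84-fold lower than at day 0 and 14.3-fold lower than at day 2. Of its 50-base stretches, 8.39% also occur in other genes, Mmp10 among them. Mmp10, a close relative that lies 46.4 kb away, had 2 and 4 counts at day 0, 0 and 1 counts at day 2, and 1 and 0 counts at day 6. Mmp27, the neighbour with neither motif, had 1.93 ± 0.478 CPM at day 0, 0.737 ± 0.178 CPM at day 2 and 1.61 ± 0.259 CPM at day 6 (SD, n = 2 each) and fell 2.59-fold by day 2 (adjusted p = 0.00600 by edgeR). The Mmp27 call did not hold with library 76 of day 2 left out (adjusted p = 0.0530 by edgeR) or library 77 of day 0 (adjusted p = 0.0787), and adjusted p ran from 0.000131 to 0.0787 over the alternatives. The collagenase Mmp13 had 10 and 4 counts at day 0, 3 and 1 counts at day 2, and 0 and 0 counts at day 6, and Mmp8, the neutrophil collagenase, had 0 to 4 counts per library. Mmp12, the macrophage elastase, had 13 and 8 counts at day 0, 0 and 1 counts at day 2, and 12 and 2 counts at day 6. Mmp12 was 22.1 (exact 95% counting interval 3.55 to 912) times lower at day 2 than at day 0 by the ratio of CPM (adjusted p = 0.0122 by edgeR). No library of day 2 carried Mmp12 past the filter, so its low day 2 was built into its admission. The Mmp12 call was lost with library 76 of day 0 left out (adjusted p = 0.0606 by edgeR) or library 76 of day 2 (adjusted p = 0.0841), and adjusted p ran from 0.00105 to 0.0841 over the alternatives. The fitted log2 change of Mmp12 between days 2 and 0 was -4.12, and became -3.24 with library 76 of day 2 left out and -6.29 with library 77 of day 2 left out, which leaves day 2 at 0 counts. The summed level of 13 macrophage markers was 57.6 and 49.7 CPM at day 0, 70.7 and 36.6 CPM at day 2, and 167 and 67.6 CPM at day 6. Lyz2 alone held 29.7 and 25.0 CPM of it at day 0, 40.9 and 19.4 CPM at day 2, and 83.2 and 35.4 CPM at day 6. The summed level of 8 neutrophil markers, with 3 to 5 of them at 0 in each library, was 0.497 and 1.03 CPM at day 0, 1.495 and 1.91 CPM at day 2, and 1.43 and 2.09 CPM at day 6, so both later days lay above day 0. Of 3 tested neutrophil markers, S100a8 (5, 36 and 30 counts on days 0, 2 and 6) and Mpo (0, 7 and 26) were called higher at both later days than at day 0. Camp was called lower at day 6. Over all genes, 33.6% were higher at day 2, and 35.9% were higher and 35.1% lower at day 6. Of the untested markers, S100a9 and Csf3r had 1 count each over all libraries and Ltf 0. Ly6g had 3, 0 and 0 counts on the 3 days, and Elane 1, 0 and 14. At day 6 library 76 held more of both Mmp12 and the macrophage markers than library 77. The part of such cells in these counts was not tested.

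**Figure D1:**
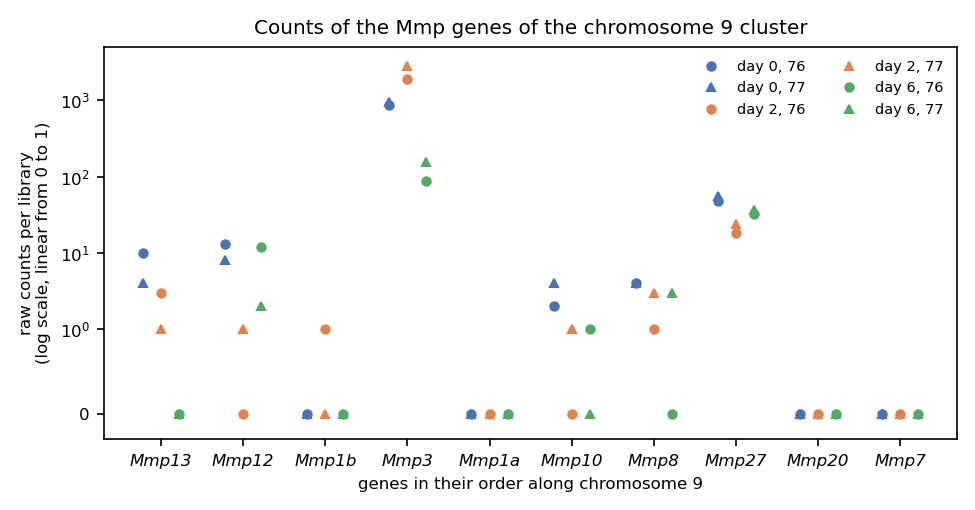
Raw counts per library (log scale, linear from 0 to 1) of the 10 Mmp genes of the chromosome 9 cluster, in their order along the chromosome. Circles are libraries 76 and triangles 77, coloured by day. Mmp3 stands between 87 and 2789 counts, Mmp27 between 18 and 55, and every other gene of the cluster at or under 13.

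By a joint test over the 3 days, all 32 tested members differed between days, against 84.8% of the 14459 genes tested. That count, and the counts below of members lower than at day 0, include Adamts16 and Mmp16, which passed the filter on day 0 alone. The counts also include Mmp12, Adamts17 and Adamts19, which no library of their lowest day carried past the filter. Mmp12 is among those lower at day 2 than at day 0 and higher at day 6 than at day 2. Adamts17 is among those lower at day 6 than at days 0 and 2, and Adamts19 among those higher than at day 0. The mean level was highest at day 0 for 21 of the 32, at day 2 for 5 and at day 6 for 6. Between day 2 and day 0, 25 members were called, 8 higher and 17 lower, where 67.1% of all genes were called, 33.6% higher and 33.6% lower. The median log2 change of the tested members was -1.10, against 0.0042 over all genes. Between day 6 and day 0, 29 were called, 6 higher and 23 lower, where 70.9% of all genes were called, 35.9% higher and 35.1% lower. The median log2 change was -1.71, against -0.012. Between day 6 and day 2, 23 were called, 12 higher and 11 lower, where 65.7% of all genes were called, 38.2% higher and 27.5% lower. The median log2 change was -0.10, against 0.12. With library totals as the only scaling, which moved the median of all genes by -0.36 on the log2 scale, that split became 5 higher and 16 lower. It was 12 higher and 12 lower with RLE scaling and with DESeq2, and 12 higher and 13 lower without the filter. Leaving out 1 library also moved the split. With library 77 of day 0 left out, the median of all genes between days 6 and 2 moved by -0.13. All genes moved likewise with library totals, to 3650 higher and 6181 lower, against 5519 and 3981 with TMM. For day 6 against day 0, library totals moved the median of all genes by -0.25 and left 6 members higher and 24 lower, with all genes at 3967 higher and 6475 lower, against 5184 and 5069 with TMM. For day 2 against day 0 the shift was 0.11, with 8 members higher and 17 lower and all genes at 5557 higher and 4149 lower, against 4853 and 4851 with TMM. These comparisons share libraries, so their counts are not independent of each other.

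**Figure D2:**
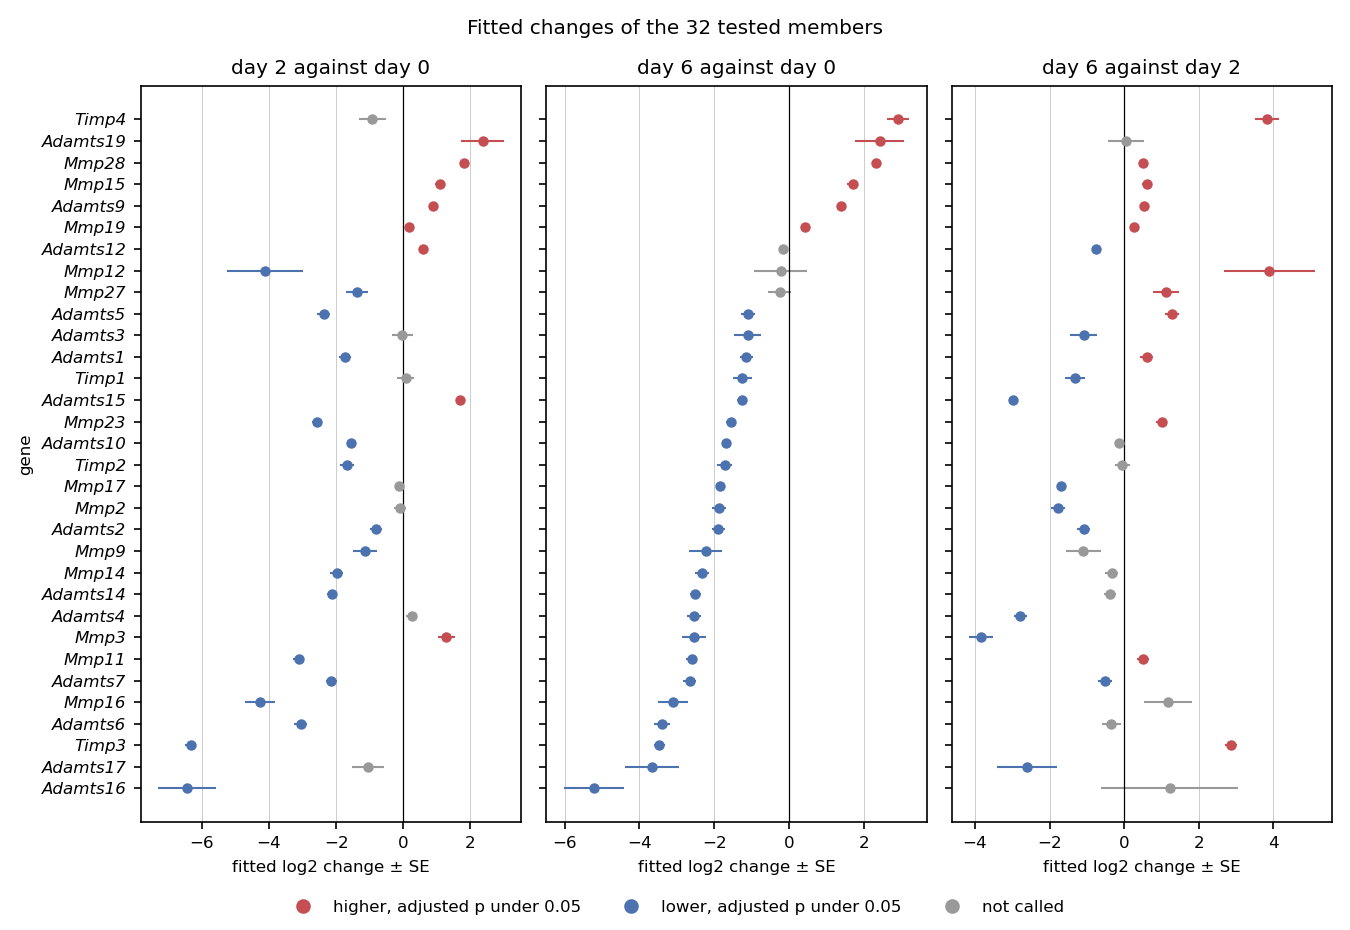
Fitted log2 changes with their standard errors for the 32 tested members in the 3 comparisons, coloured by call at an adjusted p of 0.05. The fitted values of Adamts16, Adamts17 and Mmp12 rest on days with 1 to 3 counts, and most members lie left of 0 in the comparison of day 6 with day 0, where 23 were lower.

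Summed per kilobase of exon, all 3 families were highest at day 0. The 23 Mmp genes summed to 822 ± 0.208 at day 0, 544 ± 23.7 at day 2 and 252 ± 61.2 at day 6 CPM per kb (SD, n = 2 each). The 19 Adamts genes summed to 364 ± 10.4 at day 0, 209.7 ± 13.8 at day 2 and 137 ± 31.4 at day 6, and the 4 Timp genes to 746 ± 22.02 at day 0, 418 ± 64.8 at day 2 and 248 ± 92.9 at day 6. The libraries of different days did not overlap for any family, although the 2 libraries of day 6 stood far apart, at 182 and 314 for the Timp genes. Timp over Mmp, by these sums, was 0.888 and 0.926 for the libraries of day 0, 0.705 and 0.827 for those of day 2, and 0.872 and 1.06 at day 6. The ratio was lowest at day 2 in both numbers, and day 6 overlapped day 0. Mmp2 alone held 69.1% and 67.6% of the Mmp sum at day 2, against 48.7% and 48.3% at day 0. Timp2 led the Timp sum at days 0 and 6, and Timp1 led it at day 2 with 66.9% and 69.7%. In bulk RNA, fewer cells of a type and less RNA per cell cannot be told apart.

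**Figure D3:**
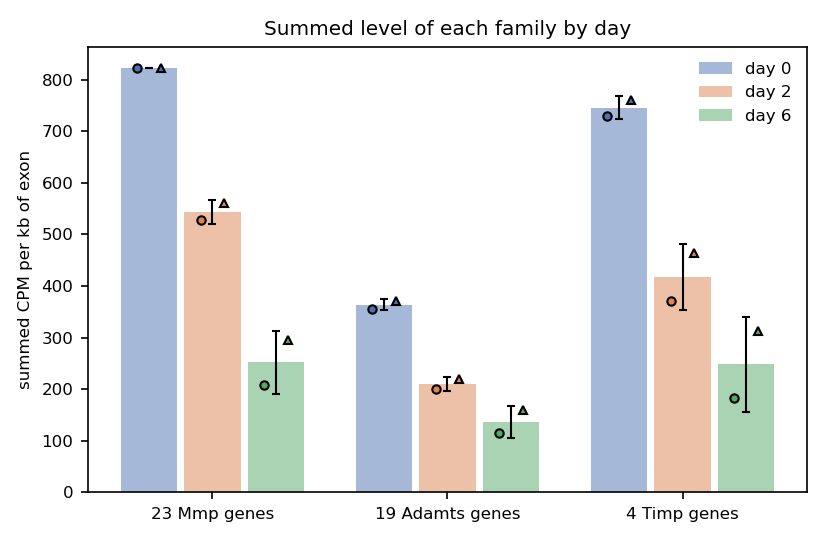
Summed CPM per kb of exon of each family by day. Bars are means of 2 libraries, error bars the SD, circles libraries 76 and triangles 77. The Mmp sum falls at each later day, and the libraries of day 6 are the farthest apart.

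The most abundant members per kilobase of exon at day 0 were Timp2, Mmp2, Timp1, Mmp14 and Adamts2. Timp2 had 416 ± 22.03 at day 0, 131 ± 12.4 at day 2 and 127 ± 41.8 at day 6 CPM per kb, and Mmp2 had 399 ± 2.63 at day 0, 372 ± 10.4 at day 2 and 109 ± 33.8 at day 6. At day 0 Timp2 and Mmp2 did not differ beyond their spread, while at day 2 Mmp2 stood above Timp2 and at day 6 the 2 genes and Timp1 overlapped. Timp1 had 272 ± 0.999 at day 0, 286 ± 52.4 at day 2 and 115 ± 50.3 at day 6 CPM per kb, Mmp14 239 ± 4.80 at day 0, 60.4 ± 1.10 at day 2 and 47.8 ± 14.97 at day 6, and Adamts2 162 ± 7.69 at day 0, 92.1 ± 8.26 at day 2 and 43.7 ± 12.1 at day 6. Mmp14 and Adamts2 had adjacent ranks on all 3 days, and at day 6 their spreads overlapped. The next members at day 0 were Mmp23, Adamts1, Adamts5, Timp3 and Mmp11, at 42.4 to 86.8 CPM per kb.

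**Figure D4:**
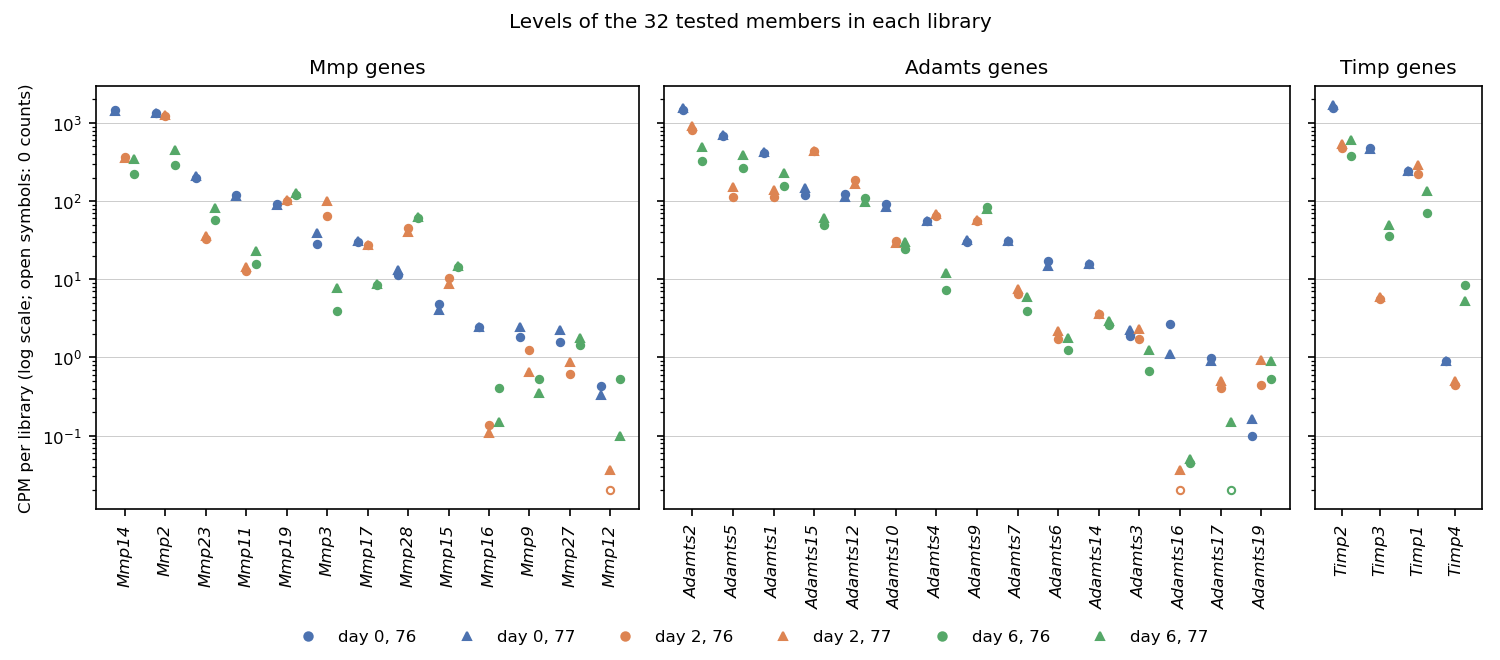
CPM of the 32 tested members in each library on a log scale, by family, in the order of their day 0 means. Circles are libraries 76 and triangles 77, coloured by day, and open symbols mark 0 counts. Timp3 spans from 5.64 CPM at day 2 to 474 CPM at day 0, the widest gap between days among the well-counted genes.

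Among the inhibitors, Timp3 fell furthest. Timp3, which stays bound to the matrix after secretion, had 474 and 463 CPM at day 0, 5.64 and 6.00 CPM at day 2, and 35.8 and 49.3 CPM at day 6. All day 2 and day 6 libraries lay far below those of day 0, and day 6 lay above day 2 without overlap. Timp3 fell 80.4-fold by day 2 (log2 change -6.33, SE 0.17, adjusted p = 1.95e-07 by edgeR), the largest fold among members with more than 3 counts on every day, and at day 6 it stood 11.0-fold below day 0 and 7.29-fold above day 2 (adjusted p = 1.62e-06 by edgeR). The gene lies on chromosome 10 from 86300372 to 86349506 on the plus strand, and 21.3% of its exonic length overlaps Syn3. The sources used here do not say how reads from shared exons were assigned. Timp2, the partner of Mmp14 in the activation of Mmp2, had 1562 and 1683 CPM at day 0, 476 and 544 CPM at day 2, and 378 and 609 CPM at day 6. Day 0 stood above the later days, and days 2 and 6 overlapped. Timp2 fell 3.18-fold by day 2 (log2 change -1.67, SE 0.20, adjusted p = 0.000128 by edgeR) and was 3.29-fold lower at day 6 than at day 0, with no call between days 6 and 2 (log2 change -0.048). That last comparison was called lower with library 77 of day 6 left out (log2 change -0.43, adjusted p = 0.00393 by edgeR) and higher with library 76 of day 6 left out (log2 change 0.25, adjusted p = 0.0479), and adjusted p ran from 0.00393 to 0.902 over the alternatives. Timp1, a secreted inhibitor of most Mmp proteins, had 241 and 242 CPM at day 0, 221 and 287 CPM at day 2, and 70.5 and 134 CPM at day 6. Days 0 and 2 overlapped, and both day 6 libraries were lower, by 2.37-fold against day 0 (adjusted p = 0.00248 by edgeR) and 2.49-fold against day 2. Timp4, the inhibitor with the narrowest tissue range, ran the other way. Timp4 had 27 and 22 counts at day 0, 13 and 14 counts at day 2, and 187 and 106 counts at day 6, or 0.8998 ± 0.00852 CPM at day 0, 0.473 ± 0.0435 CPM at day 2 and 6.82 ± 2.17 CPM at day 6 (SD, n = 2 each). Both day 6 libraries were above all others, by 7.57-fold against day 0 (log2 change 2.92, SE 0.29, adjusted p = 3.56e-05 by edgeR) and 14.4-fold against day 2. Day 2 against day 0 was not called for Timp4 (adjusted p = 0.0690 by edgeR).

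The gelatinases, which cut denatured collagen and basement membrane collagen, differed in level. Mmp2 lies on chromosome 8 from 92827291 to 92853420 on the plus strand. It had 1351 and 1338 CPM at day 0, 1228 and 1278 CPM at day 2, and 287 and 449 CPM at day 6. Days 0 and 2 stood close together, and both day 6 libraries were far lower. Mmp2 was not called between day 2 and day 0 (log2 change -0.10, adjusted p = 0.635 by edgeR), a value whose sign turned with library totals and with library 77 of day 0 left out, and was 3.405-fold lower at day 6 than at day 2 (log2 change -1.77, SE 0.18, adjusted p = 5.53e-05 by edgeR). Mmp9, the other gelatinase, had 2.12 ± 0.430 CPM at day 0, 0.952 ± 0.431 CPM at day 2 and 0.442 ± 0.132 CPM at day 6 (SD, n = 2 each). It was 4.69-fold lower at day 6 than at day 0 (adjusted p = 0.00183 by edgeR). Its fall by day 2 (adjusted p = 0.0230 by edgeR) was lost with DESeq2 (adjusted p = 0.0571), with library 77 of day 0 left out (adjusted p = 0.207 by edgeR) and with library 77 of day 2 left out (adjusted p = 0.147), and adjusted p ran from 0.00167 to 0.207 over the alternatives.

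The 6 membrane-type enzymes split. Mmp14, on chromosome 14 from 54431612 to 54445364 on the plus strand, had 1445 and 1404 CPM at day 0, 365 and 356 CPM at day 2, and 222 and 348 CPM at day 6. Both later days lay below day 0 in every library. Mmp14 fell 3.95-fold by day 2 (log2 change -1.98, SE 0.18, adjusted p = 3.13e-05 by edgeR) and was 5.00-fold lower at day 6 than at day 0. Between days 6 and 2 the call of Mmp14 (adjusted p = 0.130 by edgeR) depended on the processing. It became lower with DESeq2 (adjusted p = 0.0392), with library totals (adjusted p = 0.0151 by edgeR), with no filter (adjusted p = 0.000821) and with library 77 of day 6 left out (adjusted p = 3.43e-05), and adjusted p ran from 3.43e-05 to 0.622 over the alternatives. Mmp17, held at the membrane by a lipid anchor, had 30.0 and 30.5 CPM at day 0, 27.5 and 27.5 CPM at day 2, and 8.35 and 8.57 CPM at day 6. It was 3.25-fold lower at day 6 than at day 2 (log2 change -1.70, SE 0.087, adjusted p = 1.16e-06 by edgeR), and between days 2 and 0 it was not called. Mmp16 had 75 and 59 counts at day 0, 4 and 3 counts at day 2, and 9 and 3 counts at day 6, and was lower at day 2 (19.4-fold, adjusted p = 5.76e-05 by edgeR) and at day 6 (8.60-fold; log2 change -3.10, or -3.99 with library 76 of day 6 left out). Only the libraries of day 0 carried Mmp16 past the filter. Mmp15 was the membrane-type member that rose. Mmp15 had 4.80 and 4.08 CPM at day 0, 10.3 and 8.63 CPM at day 2, and 14.5 and 14.6 CPM at day 6, in ascending order of days without overlap. It rose 2.12-fold by day 2 (adjusted p = 0.000264 by edgeR) and 3.26-fold by day 6 (log2 change 1.71, SE 0.15, adjusted p = 1.47e-05). The call between days 6 and 2 (adjusted p = 0.00392 by edgeR) was lost with library totals (log2 change 0.26, adjusted p = 0.130), and adjusted p ran from 7.55e-05 to 0.130 over the alternatives. Mmp24 and Mmp25 stayed untested, with 12 and 21 counts over all libraries.

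Of the remaining Mmp genes, Mmp11 and Mmp23 fell and Mmp19 and Mmp28 rose. Mmp11, which is activated by furin inside the cell, had 118 and 117 CPM at day 0, 12.6 and 14.6 CPM at day 2, and 15.9 and 22.98 CPM at day 6. It fell 8.67-fold by day 2 (log2 change -3.12, SE 0.15, adjusted p = 1.46e-06 by edgeR), with no library of a later day near those of day 0. The small call upward between days 6 and 2 (log2 change 0.51, adjusted p = 0.0214 by edgeR) was lost with library totals (log2 change 0.16) and with library 76 of day 2 left out, library 77 of day 0 or library 77 of day 6 (log2 change 0.41, 0.38 and 0.22), and adjusted p ran from 8.04e-06 to 0.451 over the alternatives. Mmp23, a small enzyme that lacks the hemopexin domain of most Mmp proteins, had 198 and 208 CPM at day 0, 32.9 and 35.9 CPM at day 2, and 57.4 and 81.4 CPM at day 6. It fell 5.90-fold by day 2 (log2 change -2.56, SE 0.15, adjusted p = 2.95e-06 by edgeR) and was then 2.01-fold higher at day 6 than at day 2 (adjusted p = 0.000398 by edgeR; log2 change 1.01, or 0.66 with library totals). Days did not overlap for Mmp23, and day 6 remained 2.93-fold below day 0. Mmp28, also known as epilysin, had 11.4 and 13.1 CPM at day 0, 45.1 and 39.9 CPM at day 2, and 60.1 and 61.7 CPM at day 6. The day 0 libraries were lowest and the day 6 libraries highest. Mmp28 rose 3.48-fold by day 2 (log2 change 1.80, SE 0.10, adjusted p = 2.44e-06 by edgeR) and 4.99-fold by day 6 (adjusted p = 2.99e-07 by edgeR). Of its exonic length 12.0% overlaps another gene, and its call between days 6 and 2 was lost with library totals (log2 change 0.16, adjusted p = 0.185 by edgeR; 4.26e-07 to 0.185 over the alternatives). Mmp19 had 91.2 and 89.5 CPM at day 0, 101 and 102 CPM at day 2, and 119 and 126 CPM at day 6. Each later day stood above the one before by a small step, and it was 1.36-fold higher at day 6 than at day 0 (log2 change 0.44, SE 0.066, adjusted p = 0.000393 by edgeR; log2 change 0.19 with library totals). The call of day 2 against day 0 (log2 change 0.17, adjusted p = 0.0494 by edgeR) was lost under a replicate block (adjusted p = 0.0552 by edgeR) and without the filter (adjusted p = 0.0989). It was also lost with library 76 of day 0 left out (adjusted p = 0.156 by edgeR), library 76 of day 2 (adjusted p = 0.117) or library 77 of day 2 (adjusted p = 0.148), and adjusted p ran from 0.0106 to 0.156 over the alternatives. Its log2 change between days 6 and 2 was 0.27 (adjusted p = 0.00644 by edgeR), -0.087 with library totals, 0.13 with library 77 of day 0 left out and 0.25 with library 76 of day 2 left out, and adjusted p ran from 0.00260 to 0.333 over the alternatives. Further, 28.3% of the exonic length of Mmp19 overlaps Tmem198b or Gm47093.

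The procollagen N-propeptidases trim the fibrillar collagens as these leave the cell. Adamts2, the main enzyme for collagens I and III, lies on chromosome 11 from 50602084 to 50807573 on the plus strand. It had 1464 and 1566 CPM at day 0, 806 and 915 CPM at day 2, and 328 and 487 CPM at day 6. Levels stepped down from day to day without overlap: Adamts2 fell 1.76-fold by day 2 (log2 change -0.82, SE 0.17, adjusted p = 0.00304 by edgeR), and day 6 was 2.11-fold below day 2 and 3.72-fold below day 0. Col1a1, a chain of its substrate collagen I, had 28424 ± 3263 CPM at day 0, 2803 ± 84.8 CPM at day 2 and 3186 ± 1031 CPM at day 6 (SD, n = 2 each). Adamts14, of like activity, had 15.5 and 15.8 CPM at day 0, 3.602 and 3.56 CPM at day 2, and 2.59 and 2.94 CPM at day 6. It fell 4.36-fold by day 2 (log2 change -2.13, SE 0.13, adjusted p = 4.05e-06 by edgeR), and day 6 against day 2 was not called (adjusted p = 0.0664 by edgeR). Adamts3, which also processes the growth factor VEGF-C, had 2.06 ± 0.290 CPM at day 0, 2.02 ± 0.451 CPM at day 2 and 0.958 ± 0.408 CPM at day 6 (SD, n = 2 each), and its day 6 libraries were lower than those of day 0 (2.16-fold, adjusted p = 0.0220 by edgeR) and of day 2 (2.12-fold). The Adamts3 call against day 0 was lost with library 76 of day 6 left out (adjusted p = 0.124 by edgeR) or library 77 of day 0 (adjusted p = 0.105), and adjusted p ran from 0.00146 to 0.124 over the alternatives. That against day 2 was lost with library 76 of day 6 left out (adjusted p = 0.137 by edgeR) or library 77 of day 2 (adjusted p = 0.141), and adjusted p ran from 0.00177 to 0.141 over the alternatives.

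The proteoglycan-cutting enzymes moved in different ways. Adamts5 and Adamts1, which cut aggrecan and versican, are neighbours 53.1 kb apart on the minus strand of chromosome 16. Adamts5 had 678 and 694 CPM at day 0, 114 and 153 CPM at day 2, and 263 and 384 CPM at day 6. Adamts1 had 417 and 426 CPM at day 0, 112 and 139.7 CPM at day 2, and 154 and 229 CPM at day 6. Both were highest at day 0, lowest at day 2 and between at day 6, with no overlap. Adamts5 fell 5.15-fold by day 2 (log2 change -2.37, SE 0.20, adjusted p = 1.66e-05 by edgeR) and was 2.43-fold higher at day 6 than at day 2 (adjusted p = 0.000433 by edgeR). Adamts1 fell 3.35-fold by day 2 (log2 change -1.74, SE 0.18, adjusted p = 5.48e-05 by edgeR). Its rise between days 6 and 2 (log2 change 0.60, adjusted p = 0.0161 by edgeR) was lost with library totals (adjusted p = 0.276), with library 76 of day 2 left out (adjusted p = 0.123) and with library 77 of day 0 left out (adjusted p = 0.0659), and its log2 change was 0.29 with library 77 of day 6 left out, and adjusted p ran from 1.38e-09 to 0.276 over the alternatives. Adamts15, another versican-cutting enzyme, rose at day 2 instead. Adamts15, on chromosome 9 from 30899155 to 30922452 on the minus strand, had 119.9 and 146 CPM at day 0, 433 and 431 CPM at day 2, and 49.5 and 61.0 CPM at day 6. The day 2 libraries were the highest by far and the day 6 libraries the lowest. Adamts15 rose 3.25-fold by day 2 (log2 change 1.70, SE 0.12, adjusted p = 8.40e-06 by edgeR), and day 6 was 7.83-fold below day 2 and 2.41-fold below day 0. Adamts8, its neighbour 20.1 kb away on the other strand, had 8 counts over all libraries. Adamts4, which cuts aggrecan, had 55.2 and 56.0 CPM at day 0, 64.6 and 67.4 CPM at day 2, and 7.19 and 12.1 CPM at day 6, and was 6.90-fold lower at day 6 than at day 2 (log2 change -2.79, SE 0.18, adjusted p = 3.66e-06 by edgeR). Days 2 and 0 were not called as different for Adamts4 (1.19-fold, adjusted p = 0.183 by edgeR). Adamts9, a versican-cutting enzyme that also acts inside the secretory pathway, rose throughout. Adamts9 had 29.7 and 32.1 CPM at day 0, 55.7 and 57.7 CPM at day 2, and 83.3 and 79.7 CPM at day 6, in ascending order of days without overlap, 2.64-fold higher at day 6 than at day 0 (log2 change 1.40, SE 0.072, adjusted p = 8.16e-07 by edgeR). With library totals its call between days 6 and 2 was lost (log2 change 0.16, adjusted p = 0.0714 by edgeR; 7.06e-08 to 0.0714 over the alternatives), and 12.0% of its exonic length overlaps other genes. The substrate versican, Vcan, had 798 and 644 CPM at day 0, 1832 and 1904 CPM at day 2, and 119.9 and 162 CPM at day 6, that is 2.59-fold higher at day 2 and 5.12-fold lower at day 6 than at day 0.

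Enzymes known to cut Comp, a cartilage and tendon matrix protein, went separate ways. Adamts12 had 122 and 113 CPM at day 0, 187 and 166 CPM at day 2, and 110.3 and 98.1 CPM at day 6. It was highest at day 2, 1.51-fold above day 0 (log2 change 0.59, SE 0.091, adjusted p = 0.000543 by edgeR), and day 6 was 1.69-fold below day 2. Day 6 against day 0 was not called for Adamts12 (adjusted p = 0.127 by edgeR). Adamts7 had 30.7 and 30.8 CPM at day 0, 6.46 and 7.48 CPM at day 2, and 3.88 and 5.93 CPM at day 6. It fell 4.42-fold by day 2 (log2 change -2.14, SE 0.16, adjusted p = 9.94e-06 by edgeR), and Comp itself was 2.68-fold lower at day 2 and 9.37-fold lower at day 6 than at day 0. The smaller step of Adamts7 between days 6 and 2 (log2 change -0.51, adjusted p = 0.0401 by edgeR) was lost with library 76 of day 0 left out, day 2 or day 6 (adjusted p = 0.0690, 0.0556 and 0.227) and with library 77 of day 2 left out (adjusted p = 0.174), and adjusted p ran from 0.00128 to 0.227 over the alternatives. Its log2 change was -0.23 with library 76 of day 6 left out, -0.84 with library 77 of day 6 left out and -0.87 with library totals. Both fibrillin-binding members fell by day 2. Adamts10 had 91.3 and 83.1 CPM at day 0, 30.4 and 29.0 CPM at day 2, and 24.2 and 29.8 CPM at day 6, 2.93-fold lower at day 2 than at day 0 (log2 change -1.55, SE 0.10, adjusted p = 5.42e-06 by edgeR). Adamts6 had 17.2 and 14.9 CPM at day 0, 1.70 and 2.16 CPM at day 2, and 1.25 and 1.79 CPM at day 6, 8.32-fold lower (log2 change -3.06, SE 0.19, adjusted p = 4.32e-06 by edgeR). For both, days 6 and 2 overlapped and were not called as different. Fbn2, one of the fibrillins, was 5.89-fold lower at day 2 than at day 0.

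Adamts16, Adamts17 and Adamts19, whose substrates are poorly known, were counted thinly. Adamts16 had 81 and 27 counts at day 0, 0 and 1 counts at day 2, and 1 and 1 counts at day 6, so it was 113 (exact 95% counting interval 19.9 to 4522) times lower at day 2 than at day 0 by the ratio of CPM (adjusted p = 0.000251 by edgeR) and 42.1 (exact 95% counting interval 11.4 to 352) times lower at day 6. The 2 libraries of day 0 stood far apart, and they alone carried Adamts16 past the filter. The fitted log2 change of Adamts16 between days 2 and 0 was -6.43, and became -5.63 with library 76 of day 0 left out, -5.55 with library 76 of day 2 left out and -8.60 with library 77 of day 2 left out, which leaves day 2 at 0 counts. Between days 6 and 0 it was -5.22, or -4.42 with library 76 of day 0 left out. Adamts17 had 30 and 22 counts at day 0, 12 and 14 counts at day 2, and 0 and 3 counts at day 6. It was 13.5 (exact 95% counting interval 4.37 to 67.6) times lower at day 6 than at day 0 (adjusted p = 0.00193 by edgeR) and 6.43 (exact 95% counting interval 1.97 to 33.2) times lower than at day 2, where the call was lost with library 76 of day 2 left out (adjusted p = 0.0525 by edgeR), library 77 of day 2 (adjusted p = 0.0824) or library 76 of day 6 (adjusted p = 0.113), and adjusted p ran from 0.00338 to 0.113 over the alternatives. Against day 0 its fitted log2 change was -3.66, and became -2.63 with library 76 of day 6 left out and -7.68 with library 77 of day 6 left out, which leaves day 6 at 0 counts. Against day 2 it was -2.60, and became -1.57 and -6.63 under the same omissions. Adamts19 had 3 and 4 counts at day 0, 13 and 26 counts at day 2, and 12 and 18 counts at day 6. The later days did not overlap day 0, by 5.15-fold at day 2 (adjusted p = 0.0101 by edgeR) and 5.35-fold at day 6 (adjusted p = 0.00976). With library 76 of day 0 left out both calls were lost (adjusted p = 0.0824 and 0.0746 by edgeR), as was the first with library 77 of day 2 left out (log2 change 1.75 against 2.37, adjusted p = 0.0786) and the second with library 77 of day 6 left out (adjusted p = 0.0513), and over the alternatives adjusted p ran from 0.000592 to 0.0824 and 0.000623 to 0.0746.

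The 2 libraries of day 6 stood apart for the members as a whole. Of the 24 members with 100 or more counts in some library, 21 were higher in library 77 than in 76 at day 6, with a median ratio of 1.43, whereas 15 of 24 were at day 0 (median ratio 1.01) and 16 of 24 at day 2 (median ratio 1.05). The same count was not made over all genes, so it cannot be read as particular to the members. Over all genes too, libraries of a day differed most at day 6 (chi-square over its degrees of freedom 26.3, against 6.75 at day 0 and 7.53 at day 2). Library 77 of day 6 also held less of the summed adipocyte markers and more of the progenitor markers than library 76, as given above. The part of that difference in the members' spread was not tested.

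The proteins that switch these enzymes on, block them or clear them were read from the same fit. Of 24 listed activators, inhibitors and clearance receptors, 21 were tested, with 2 higher and 13 lower at day 2 than at day 0 (median log2 change -0.33; over all genes 33.6% higher and 33.6% lower, median 0.0042), 3 higher and 14 lower at day 6 than at day 0 (median log2 change -0.68; over all genes 35.9% higher and 35.1% lower, median -0.012), and 9 higher and 6 lower at day 6 than at day 2 (median log2 change 0.17; over all genes 38.2% higher and 27.5% lower, median 0.12). Plau and Plat, which turn plasminogen into the Mmp-activating protease plasmin, were 7.54-fold and 5.04-fold lower at day 2 than at day 0. Plaur, the receptor of Plau, fell 9.14-fold by day 2. Reck, a membrane-anchored inhibitor of Mmp proteins, had 129.9 ± 9.79 CPM at day 0, 68.3 ± 10.4 CPM at day 2 and 65.7 ± 17.1 CPM at day 6 (SD, n = 2 each) and fell 1.90-fold by day 2 (adjusted p = 0.00134 by edgeR). Furin, which cuts the propeptides of membrane-type Mmp and ADAMTS proteins, was 1.51-fold lower at day 6 than at day 0, and its relative Pcsk5 6.35-fold lower. Bsg, an inducer of Mmp genes, was called in none of the 3 comparisons by edgeR (adjusted p of 0.0574 at the lowest). Lrp1, the receptor that takes up several ADAMTS proteins and Timp3, was uncalled at day 2 (log2 change 0.049) and 3.54-fold lower at day 6 than at day 0. The matrix glycoprotein Thbs1 fell 25.3-fold by day 2 and was 4.75-fold higher at day 6 than at day 2, and Thbs2 was 7.21-fold lower at day 6 than at day 0. The secreted proteoglycan Spock2 was 6.24-fold higher at day 6 than at day 0, and the broad protease inhibitor A2m, with at most 4.55 CPM on average, was 10.6-fold lower at day 6 than at day 2.

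Relatives of the members outside the symbol rule moved in both directions. Of 24 other metzincins and relatives, 20 were tested, with 5 higher and 9 lower at day 2 than at day 0 (median log2 change -0.40; over all genes 33.6% higher and 33.6% lower, median 0.0042), 3 higher and 15 lower at day 6 than at day 0 (median log2 change -1.07; over all genes 35.9% higher and 35.1% lower, median -0.012), and 5 higher and 13 lower at day 6 than at day 2 (median log2 change -0.58; over all genes 38.2% higher and 27.5% lower, median 0.12). Papln, a secreted ADAMTS relative without protease activity, had 1.79 and 2.43 CPM at day 0, 1.22 and 1.62 CPM at day 2, and 48.5 and 54.3 CPM at day 6. Only the day 6 libraries were high, 24.6-fold above day 0 (adjusted p = 9.22e-08 by edgeR) and 36.2-fold above day 2. Adamtsl3, also without protease activity, fell 47.1-fold by day 2 and stood 16.4-fold below day 0 at day 6. Adamtsl2, a fibrillin-binding relative, rose 5.54-fold by day 2. The membrane proteins Adam33 and Adam22 were lower, Adam33 by 17.7-fold at day 2 against day 0 and Adam22 by 8.96-fold at day 6 against day 0. Adam33 was 7.09-fold higher at day 6 than at day 2, and Pappa2, a protease of insulin-like growth factor binding proteins, 18.7-fold lower.

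Substrates of both enzyme families were read in the same way. Of 14 listed ADAMTS substrates, 10 were tested, with 1 higher and 8 lower at day 2 than at day 0 (median log2 change -1.51; over all genes 33.6% higher and 33.6% lower, median 0.0042), 0 higher and 10 lower at day 6 than at day 0 (median log2 change -2.39; over all genes 35.9% higher and 35.1% lower, median -0.012), and 0 higher and 4 lower at day 6 than at day 2 (median log2 change -0.67; over all genes 38.2% higher and 27.5% lower, median 0.12). Of 12 listed Mmp substrates, all were tested, with 4 higher and 8 lower at day 2 than at day 0 (median log2 change -0.90; over all genes 33.6% higher and 33.6% lower, median 0.0042), 3 higher and 9 lower at day 6 than at day 0 (median log2 change -1.66; over all genes 35.9% higher and 35.1% lower, median -0.012), and 4 higher and 6 lower at day 6 than at day 2 (median log2 change -0.35; over all genes 38.2% higher and 27.5% lower, median 0.12). Collagen I chains Col1a1 and Col1a2 fell 10.1-fold and 6.25-fold by day 2. Col3a1, the chain of collagen III, was 9.12-fold lower at day 6 than at day 0, and Col5a1 5.70-fold lower. Among the glycoproteins and fibre proteins, Eln (elastin) fell 17.9-fold and Tnc (tenascin C) 11.0-fold by day 2. Ctgf, a secreted protein that Mmp enzymes cut, had 219 and 221 CPM at day 0, 1.66 and 2.73 CPM at day 2, and 34.7 and 51.5 CPM at day 6, the widest fall of the substrates (101-fold by day 2, adjusted p = 4.79e-07 by edgeR). Eln and Ctgf then stood 4.51-fold and 19.6-fold higher at day 6 than at day 2. The cell-surface proteoglycan Sdc1 was 4.56-fold lower at day 6 than at day 2, and versican, given above, 13.3-fold lower. RNA levels say nothing of the cutting of these proteins.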

How the data were processed

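RNA was measured in 6 libraries of cultured stromal-vascular cells of mouse inguinal fat, 2 per day, grouped by the day in their titles. Per the labels' protocols, oligo-dT beads enriched the RNA, which was sheared to about 200 bp before cDNA synthesis. The submitters' processing notes name TopHat2 2.0.13, HTSeq 0.9.1, mm10 and GRCm38. The sources used here do not give the annotation, the counting settings or the strand. The deposited values are raw counts, although their column names say RPKM: they are whole numbers and end in the 5 summary lines HTSeq writes. Those lines stayed out of all sums. They held 2.62% to 3.23% of alignments as outside features, 4.40% to 4.91% as ambiguous and 4.16% to 9.05% as not unique.

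Genes were tested with edgeR 4.0.16 in R 4.3.3 (quasi-likelihood F test, TMM scaling, filterByExpr with its minimum of 10 counts, a mean per day, 3 residual degrees of freedom), with Benjamini-Hochberg adjustment over all 14459 genes tested and a threshold of 0.05. A standard error is the log2 change over the root of F. DESeq2 1.42.0, other scalings, no filter, a replicate block and the loss of each library were alternatives. The steps were tested on simulated data. Levels between genes are per kb of exon in GENCODE M21, which matched all 46 members, and overlaps and shared 50-base stretches come from it. Intervals cover counting error only, since they pool the counts of a day's 2 libraries and leave out the spread between them. Reads carried no molecular identifiers. A count of 0 allows up to 3 counts, or 0.0993 to 0.150 CPM. Libraries of a day differed beyond sampling noise: chi-square over its degrees of freedom was 6.75 for day 0, 7.53 for day 2 and 26.3 for day 6. The series design calls them biological replicates. Whether they came from separate mice is not given, so p-values reflect the spread of these samples, which may be technical. Same-numbered libraries deviated together across genes (Pearson's r 0.109 for days 2 and 0, 0.112 for days 6 and 0, 0.213 for days 6 and 2, each over the limit of 0.1). Spearman's rho was 0.0589, 0.0546 and 0.176 for the same pairs of days. The reported fit did not pair libraries. They were taken as pairs, from the titles' numbers, in the replicate block only. The members and the gene lists were chosen with earlier results of these data known. All members that passed the filter are named, those with a joint adjusted p under 0.05 and a mean of 10 CPM or more on some day with the value of each library, and from the lists the largest changes and Reck, Plau, Plat, Bsg, Furin and Lrp1 whatever they did. A further gene of that rule is not reported here.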

Additional observations from a re-analysis of the deposited data

How the results depend on the processing

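The numbers of members called kept within 1.5 times of the reported ones under all 11 alternatives. Leaving out each library in turn gave 22 to 28 members for day 2 against day 0, 28 to 29 for day 6 against day 0, 16 to 24 for day 6 against day 2 and 29 to 32 for any day. DESeq2 called 24, 29, 24 and 32. Under a replicate block the counts were 24, 29, 23 and 32, the pairing ended the call of Mmp19 at day 2 given above, and it changed no other call. Of 128 results for single members, 89 kept their direction and call under every alternative and 39 changed under at least 1. The signs that turned were mostly of uncalled values. Adamts19 between days 6 and 2 (log2 change 0.053) became -0.017 with RLE scaling, -0.30 with library totals, -0.015 with DESeq2 and -0.40 to 0.67 with 1 library left out. Adamts3 between days 2 and 0 (-0.025) became 0.015, 0.085 and 0.013 under the same 3 settings and -0.26 to 0.27 with 1 library left out. With library totals Mmp19 between days 6 and 2 became -0.087 and Mmp2 between days 2 and 0 became 0.0095. With each library left out in turn, the value ran from -0.30 to 0.0021 for Adamts10 between days 6 and 2, -1.89 to 0.49 for Mmp12 between days 6 and 0, -0.15 to 0.020 for Mmp17 and -0.12 to 0.039 for Mmp2 between days 2 and 0, -0.49 to 0.027 for Mmp27 between days 6 and 0, -0.11 to 0.26 for Timp1 between days 2 and 0 and -0.43 to 0.25 for Timp2 between days 6 and 2. Differences not called by the reported test that some alternative called were those of Adamts17, Adamts4 and Timp4 between days 2 and 0, those of Adamts12 between days 6 and 0 and those of Adamts10, Adamts14, Adamts6, Mmp14, Mmp9 and Timp2 between days 6 and 2. The causes were not tested. Without the filter, the joint test called 33 members, 1 more than the 32 that passed it.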

Other observations

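Further calls of thinly counted members rested on single libraries. Mmp12 stood 18.9 (exact 95% counting interval 2.87 to 798) times higher at day 6 than at day 2 (adjusted p = 0.0214 by edgeR), a call lost with library 76 of day 2 left out (adjusted p = 0.116 by edgeR) or library 76 of day 6 (adjusted p = 0.290), and adjusted p ran from 0.00391 to 0.290 over the alternatives. Its fitted log2 change was 3.89, and became 2.23 with library 76 of day 6 left out, 4.61 with library 77 of day 6 left out, 3.01 with library 76 of day 2 left out and 6.07 with library 77 of day 2 left out. No library of day 2 carried Mmp12 past the filter. Mmp27 was 2.18-fold higher at day 6 than at day 2 (adjusted p = 0.0196 by edgeR), lost with library totals (adjusted p = 0.0850) and with library 76 of day 2 left out (adjusted p = 0.118) or 77 of day 6 (adjusted p = 0.0772), and adjusted p ran from 0.00372 to 0.118 over the alternatives. Mmp9 between days 6 and 2 was not called (adjusted p = 0.0732 by edgeR) but was with library totals (adjusted p = 0.0249), no filter (adjusted p = 0.0241) and with library 77 of day 2 left out (adjusted p = 0.0311), and adjusted p ran from 0.0241 to 0.425 over the alternatives. Adamts17 between days 2 and 0 was not called (adjusted p = 0.0776 by edgeR) but was without either library of day 6 (adjusted p = 0.0423 and 0.0438), and adjusted p ran from 0.0423 to 0.279 over the alternatives. The joint test over days was lost for Adamts3, Adamts19, Mmp12 and Mmp27 without single libraries, with highest adjusted p of 0.207, 0.122, 0.144 and 0.0948 by edgeR.

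Markers listed for mural, endothelial and macrophage cells moved over the same days. The summed level of 8 mural markers was 707 and 653 CPM at day 0, 161 and 177 CPM at day 2, and 331 and 388 CPM at day 6. Pdgfrb alone held 555 and 516 CPM of it at day 0, 101 and 121 CPM at day 2, and 106 and 171 CPM at day 6. Mcam held 110 and 102 CPM of it at day 6. The summed level of 9 endothelial markers was 38.1 and 33.4 CPM at day 0, 14.6 and 14.9 CPM at day 2, and 35.1 and 35.8 CPM at day 6. At day 2 against day 0, 6 of 8 tested mural markers were lower and 0 higher. Of 8 tested endothelial markers, 6 were lower and 1 higher, where 33.6% of all genes were higher and 33.6% lower. At day 6 against day 0, 3 mural markers (Cspg4, Mcam and Notch3) were higher and 5 lower. Over all genes 35.9% were higher and 35.1% lower. At day 6, 6 of the 8 tested endothelial markers were still lower than at day 0 and 1, Egfl7, was higher, with 2.28 and 1.89 CPM at day 0, 7.24 and 8.02 CPM at day 2, and 22.4 and 19.5 CPM at day 6, the greater part of the day 6 sum. Of 11 tested macrophage markers, 0 were higher and 1 lower at day 2 than at day 0. At day 6 against day 0, 7 of them were higher and 0 lower, beside the same shares of all genes. Their part in the members' levels was not tested.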
